A study of Bos taurus with 12 samples.

Results

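Cell cycle and DNA replication genes were described in the endometrium of Simmental heifers on day 7 and day 3 of the estrous cycle. The 55 genes were taken from a list that covers replication, entry into S phase, the DNA damage checkpoint and mitosis, and every probe set that the annotation of the array assigns to one of these symbols was counted as a member. Of the 55 genes, 46 were represented, by 60 of the 24016 probe sets of the Affymetrix Bovine Genome Array, and 9 had no probe set under their symbol (CDK6, CDKN1B, GINS1, GINS2, KIF11, MCM2, MKI67, TOP2A and TTK).

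The heifers were synchronized for estrus, biopsies were taken with a cytobrush in the cycle that preceded the transfer of an in vitro produced blastocyst, and the outcome in the next cycle defined the groups afterwards. HR7 and HR3 are the day 7 and day 3 samples of the high receptive endometrium (labelled receptive), in which an embryo was detected on day 28, and LR7 and LR3 those of the low receptive endometrium (labelled non receptive), in which none was detected. Each group holds 15 samples in 3 RNA pools of 5, with 1 array per pool, and the sources used here do not state which heifers entered which pool. All animals later received an embryo, and HR and LR differ by an outcome recorded after the biopsy.

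A cell that commits to division passes from G1 into S phase when cyclins D and E activate their kinases, and the licensed origins of replication are then opened by the MCM helicase. The replicated chromosomes are separated in mitosis under the control of cyclin B with CDK1, of the Aurora and Polo-like kinases and of the spindle checkpoint. Genes of replication are mainly transcribed around the start of S phase, those of mitosis in G2 and M phase. In the cyclic endometrium, estradiol drives epithelial proliferation around estrus and progesterone from the young corpus luteum restrains it afterwards.

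All values below are deposited PLIER signals on the log2 scale, 1 per pool, and where several probe sets stand for a gene, the brightest on average is given. Testing was restricted to 7339 probe sets that varied by a standard deviation of 0.2 or more over the arrays and exceeded the array median (6.63 to 6.77) in every pool of 1 group or more. Of the 46 genes, 26 were tested, 16 were too low in signal and 4 varied too little (BUB3, CCND3, CDK4 and RFC3). A gene was said to rise, fall, be higher or be lower only at an adjusted p under 0.05 in limma (Benjamini-Hochberg over the 7339 probe sets), standard deviations are over 3 pools, and each comparison rests on only 3 arrays per group. Signals of 1 gene were not set against those of another, because probe sets differ in their response.

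Of 8 epithelial markers, 7 exceeded the median of each of the 12 arrays (KRT8 of none), and so did 10 of 14 stromal and 4 of 5 macrophage markers. Epithelial, stromal and macrophage signals were thus all present in the brush samples. All 7 endothelial markers were above the median on no array. The summed linear signal of 14 stromal markers was 10964 to 21481 in HR7, 8907 to 13021 in LR7, 20520 to 24877 in HR3 and 11217 to 19111 in LR3. The 3 neutrophil markers summed to 6630 to 12696 in HR7 and 3516 to 5810 in LR7, against 308 to 445 in HR3 and 446 to 945 in LR3. The 11 T and NK cell markers summed to 799 to 1220 in HR7 and 794 to 1456 in LR7, against 1497 to 1650 in HR3 and 1412 to 2042 in LR3. Markers of squamous epithelium (4 of 9 listed had a probe set) summed to 2633 to 4169 in HR7, 486 to 629 in LR7, 238 to 384 in HR3 and 201 to 409 in LR3. No gene of these lists was at 0 on any array. The 8 epithelial markers summed to 25279 to 30931 in HR7 and 21670 to 24916 in LR7, against 26881 to 29643 in HR3 and 26494 to 27229 in LR3. Both ciliated markers with a probe set summed to 207 to 501 in HR7 and 431 to 779 in LR7, against 598 to 1200 in HR3 and 596 to 914 in LR3. The 5 macrophage markers summed to 1809 to 3770 in HR7 and 1804 to 2197 in LR7, against 1382 to 1920 in HR3 and 1135 to 1692 in LR3, and the 7 endothelial markers to 271 to 294 in HR7 and 264 to 324 in LR7, against 335 to 398 in HR3 and 307 to 335 in LR3. The 4 B and plasma cell markers with a probe set summed to 326 to 406 in HR7 and 310 to 722 in LR7, against 415 to 472 in HR3 and 479 to 2406 in LR3. The neutrophil and squamous sums were higher on day 7 without overlap in HR and in LR, and so was the macrophage sum in LR. The T and NK cell, B and plasma cell, ciliated and endothelial sums were lower without overlap in HR, and the epithelial sum was lower without overlap in LR. All 3 neutrophil markers were higher on day 7 in both receptivity groups, and 3 of 7 tested T and NK cell markers, 3 of 11 tested stromal markers and 1 of 5 tested epithelial markers were lower in each. Of 5 tested macrophage markers, 2 were higher in each, and the others did not share this rise. C1QA had 7.31, 9.76 and 8.96 in HR7 and 8.97, 9.42 and 9.97 in HR3. In LR, its pools of 8.87, 8.39 and 8.69 in LR7 lay below those of 8.97, 9.5 and 8.97 in LR3. Both ciliated markers were lower in HR and neither passed in LR. Of 2 tested B and plasma cell markers, 1 was lower in LR and none passed in HR. Members of several of these lists thus moved with the day together with the replication genes described next, and their part in those changes was not tested. In bulk RNA, fewer dividing cells and less RNA per dividing cell cannot be told apart.

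Most tested replication genes were lower on day 7 than on day 3 in both receptivity groups (13 of 14 in HR and 11 of 14 in LR), while of 7 tested mitosis genes 1 was lower and 1 was higher in each. In HR, 17 of the 26 tested genes were lower in HR7 than in HR3 and 1 was higher, and in LR 15 were lower in LR7 than in LR3 and 1 was higher. Over all tested probe sets, 20.8% were lower and 20.7% higher in HR7, and 22.0% were lower and 22.7% higher in LR7. The median log2 difference of the 26 genes was -0.64 in HR and -0.61 in LR, against -0.06 in HR and -0.10 in LR over all probe sets tested. Of the 17 genes that fell in HR, 15 also fell in LR, and CCNB1 rose in both.

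The condition on signal can favour genes that are high in 1 group only, so the same genes were also counted without it. In a fit of all 24016 probe sets, 15 of the 46 genes were lower and 1 was higher in HR7 (5.44% and 5.74% of all probe sets), and 8 were lower and 2 were higher in LR7 (5.21% and 6.24%). The sign was negative for 41 of the 46 genes in HR and for 43 of 46 in LR, with medians of -0.58 in HR and -0.56 in LR. Among the 19 tested genes that lay above the array median in all 4 groups, 13 were lower in HR7 and 11 were lower in LR7. The other 7 tested genes entered through some groups only, CDT1, CHEK1, POLD1 and TYMS through the day 3 groups, CCNB1 through the day 7 groups, BUB1B through HR3 and CDK1 through all but LR3.

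**Figure D1:**
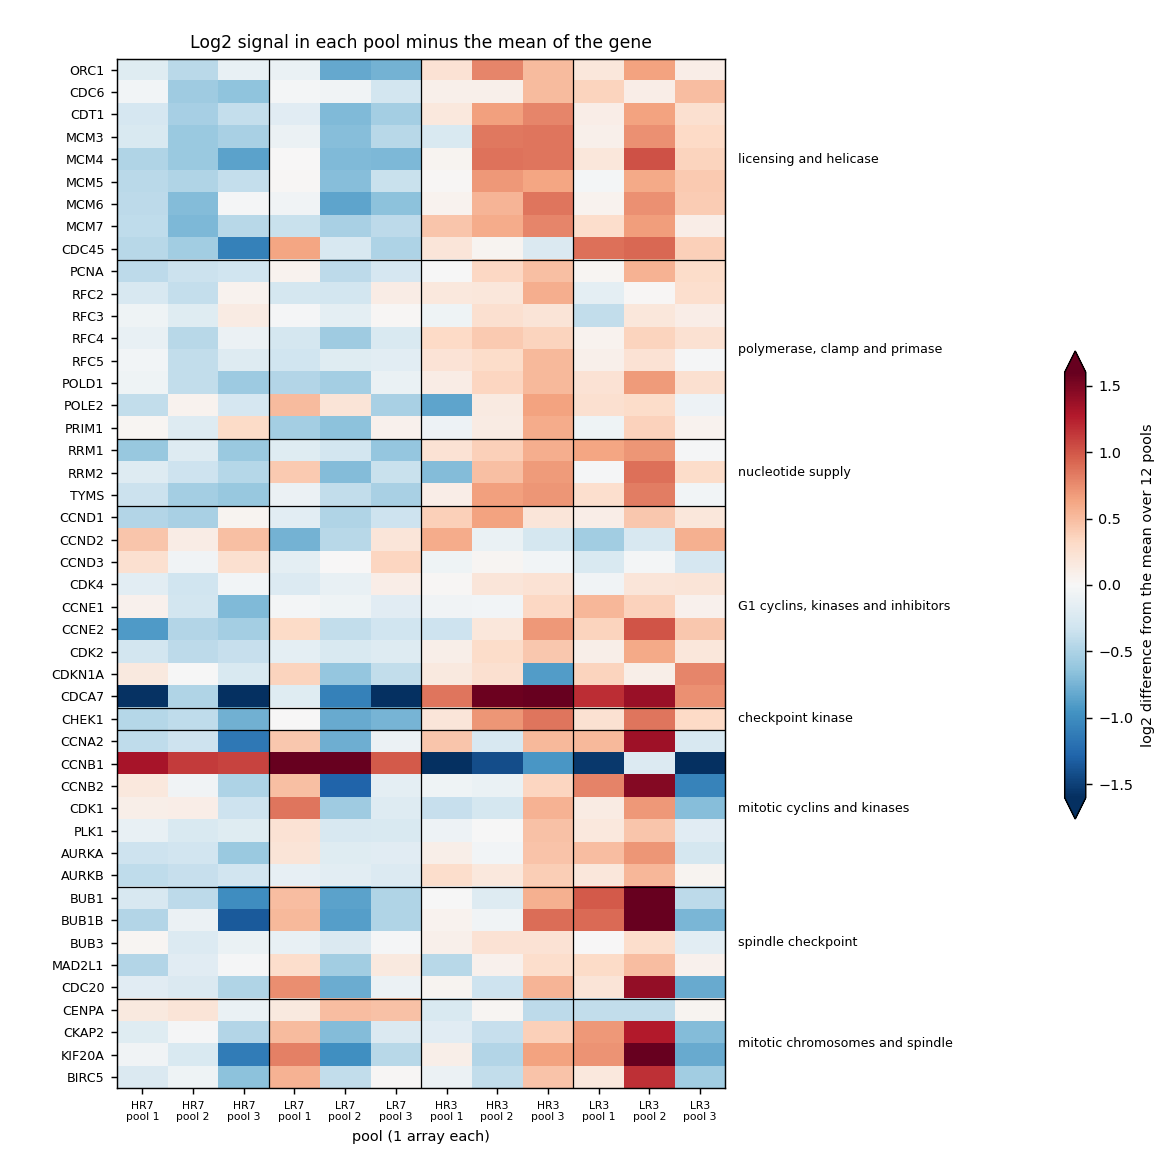
Log2 signal of the 46 genes (rows, grouped by role) in the 12 pools (columns, 3 each of HR7, LR7, HR3 and LR3), as the difference from the mean of the gene over all pools; red is higher and blue lower, and colours end at 1.6 in either direction. The replication rows are mostly blue in the day 7 columns and red in the day 3 columns, CCNB1 runs the opposite way, and most mitosis rows are red in LR3 pool 2.

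The licensing factors and helicase subunits fell without exception among those tested. All 6 tested genes of this group (CDT1, MCM3, MCM4, MCM5, MCM6 and MCM7) were lower in HR7 than in HR3 and lower in LR7 than in LR3, with medians of -0.94 in HR and -0.80 in LR. MCM7, a subunit of the ring-shaped helicase that unwinds DNA ahead of the replication fork, had 9.78, 9.47 and 9.75 in HR7 and 10.64, 10.79 and 10.97 in HR3. In LR it had 9.83, 9.67 and 9.77 in LR7 and 10.47, 10.86 and 10.30 in LR3. Every day 7 pool was thus below every day 3 pool, and the fall was 2.19-fold in HR (log2 -1.13, SE 0.16, limma adjusted p = 0.000502) and 1.73-fold in LR (-0.79, SE 0.16, adjusted p = 0.00378).

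MCM4, another subunit of the same ring, had 8.36, 8.25 and 7.99 in HR7, 8.85, 8.14 and 8.13 in LR7, 8.89, 9.71 and 9.70 in HR3 and 9.03, 9.86 and 9.20 in LR3. It fell by 1.23 in HR (SE 0.28, limma adjusted p = 0.00594) and by 0.99 in LR (SE 0.28, adjusted p = 0.0159), with no overlap between the days in either group. LR7 pool 1 was the highest of the day 7 pools and HR3 pool 1 the lowest of the day 3 pools, a feature that several replication genes shared. MCM3 had 8.60, 8.25 and 8.33 in HR7, 8.75, 8.17 and 8.40 in LR7, 8.61, 9.69 and 9.71 in HR3 and 8.93, 9.58 and 9.17 in LR3. HR3 pool 1 lay just above HR7 pool 1 and below LR7 pool 1, and the differences were -0.94 in HR (SE 0.28, limma adjusted p = 0.0205) and -0.79 in LR (SE 0.28, adjusted p = 0.0397). With the pool number as a block, the call of MCM3 in LR was lost.

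MCM6 had 8.42, 8.15 and 8.82 in HR7, 8.79, 8.0 and 8.19 in LR7, 8.90, 9.39 and 9.70 in HR3 and 8.90, 9.57 and 9.25 in LR3, and fell by 0.87 in HR and 0.91 in LR (SE 0.27 each, limma adjusted p = 0.0239 and 0.0185). MCM5 completed the measured subunits with differences of -0.88 in HR and -0.67 in LR (limma adjusted p = 0.0108 and 0.0318). CDT1, which loads the helicase on origins, had 6.63, 6.37 and 6.52 in HR7, 6.72, 6.19 and 6.35 in LR7, 7.07, 7.55 and 7.68 in HR3 and 7.01, 7.54 and 7.15 in LR3. The days did not overlap, and the differences were -0.93 in HR and -0.81 in LR (SE 0.20 each, limma adjusted p = 0.0048 and 0.00877). A second, dimmer probe set of CDT1 differed by 0.02 in HR and 0.09 in LR, so that the fall of this gene rests on 1 of its 2 probe sets.

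ORC1 of the origin recognition complex, CDC6, its partner in loading the helicase, and CDC45, a part of the active helicase, were too low in signal to be tested. Their log2 differences were -0.75, -0.64 and -0.69 in HR and -0.87, -0.45 and -0.76 in LR. In HR, all 9 genes of the group with a probe set had every HR7 pool under every HR3 pool, against 18.6% of all 24016 probe sets, and in LR 7 of the 9 had every LR7 pool under every LR3 pool, against 15.7%.

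The sliding clamp, its loader and the polymerases had smaller differences. All 5 tested genes were lower in HR7 than in HR3, with a median of -0.59, and 3 of the 5 (PCNA, RFC4 and POLD1) were lower in LR7 than in LR3. PCNA, the clamp that holds the polymerase on DNA, fell by 0.63 in HR and by 0.51 in LR (SE 0.18 each, limma adjusted p = 0.0165 and 0.0378). The LR call of PCNA was lost with the pool number as a block. POLD1, the catalytic subunit of polymerase delta, fell by 0.67 in HR and 0.76 in LR (SE 0.19 each, limma adjusted p = 0.0155 and 0.00889).

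The clamp loader subunit RFC4 had 7.50, 7.17 and 7.52 in HR7, 7.34, 7.05 and 7.38 in LR7, 7.94, 8.04 and 7.97 in HR3 and 7.68, 7.97 and 7.86 in LR3, and fell by 0.59 in HR and 0.58 in LR (SE 0.15 each, limma adjusted p = 0.00904 and 0.00956). RFC5 had 8.75, 8.40 and 8.59 in HR7 and 9.01, 9.09 and 9.31 in HR3, a fall of 0.56 (SE 0.14, limma adjusted p = 0.00945), and 8.47, 8.60 and 8.62 in LR7 and 8.87, 9.03 and 8.77 in LR3, a difference of -0.33 that did not pass (adjusted p = 0.0728). The pools of RFC5 did not overlap in either group. Its second tested probe set differed by -0.38 in HR (limma adjusted p = 0.0677) and by -0.13 in LR.

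RFC2 had 7.12, 6.99 and 7.43 in HR7, 7.09, 7.08 and 7.49 in LR7, 7.54, 7.56 and 7.96 in HR3 and 7.22, 7.39 and 7.65 in LR3. It fell by 0.51 in HR (SE 0.18, limma adjusted p = 0.0439), and its -0.20 in LR did not pass (adjusted p = 0.37). RFC2 and RFC5 passed in HR alone, but the difference between the changes in HR and LR did not pass for either (interaction, limma adjusted p = 1.0). The untested RFC3, POLE2 and PRIM1, for a loader subunit, a subunit of polymerase epsilon and the primase, ranged over -0.18 to -0.17 in HR and were -0.01, -0.09 and -0.49 in LR.

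Of the 3 genes of nucleotide supply, RRM1 and TYMS fell in both groups. RRM1, the large subunit of ribonucleotide reductase, had 9.30, 9.70 and 9.32 in HR7, 9.71, 9.62 and 9.29 in LR7, 10.14, 10.29 and 10.49 in HR3 and 10.54, 10.62 and 9.89 in LR3. The days did not overlap, and the differences were -0.87 in HR and -0.81 in LR (SE 0.21 each, limma adjusted p = 0.00751 and 0.0102). TYMS, which makes thymidylate, had 6.84, 6.63 and 6.57 in HR7, 7.08, 6.78 and 6.66 in LR7, 7.28, 7.83 and 7.88 in HR3 and 7.45, 8.0 and 7.14 in LR3. It fell by 0.98 in HR and 0.69 in LR (SE 0.23 each, limma adjusted p = 0.00623 and 0.0286). A second, dimmer probe set of TYMS differed by -0.13 in HR and by 0.20 in LR. Over the 14 second probe sets of the listed genes, 11 had the sign of the brighter one and 3 the opposite sign in each day comparison. RRM2, the small subunit of the reductase, did not pass, with -0.49 in HR and -0.59 in LR (SE 0.36 each, limma adjusted p = 0.279 and 0.188), and HR3 pool 1 with 6.76 lay below all HR7 pools.

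**Figure D2:**
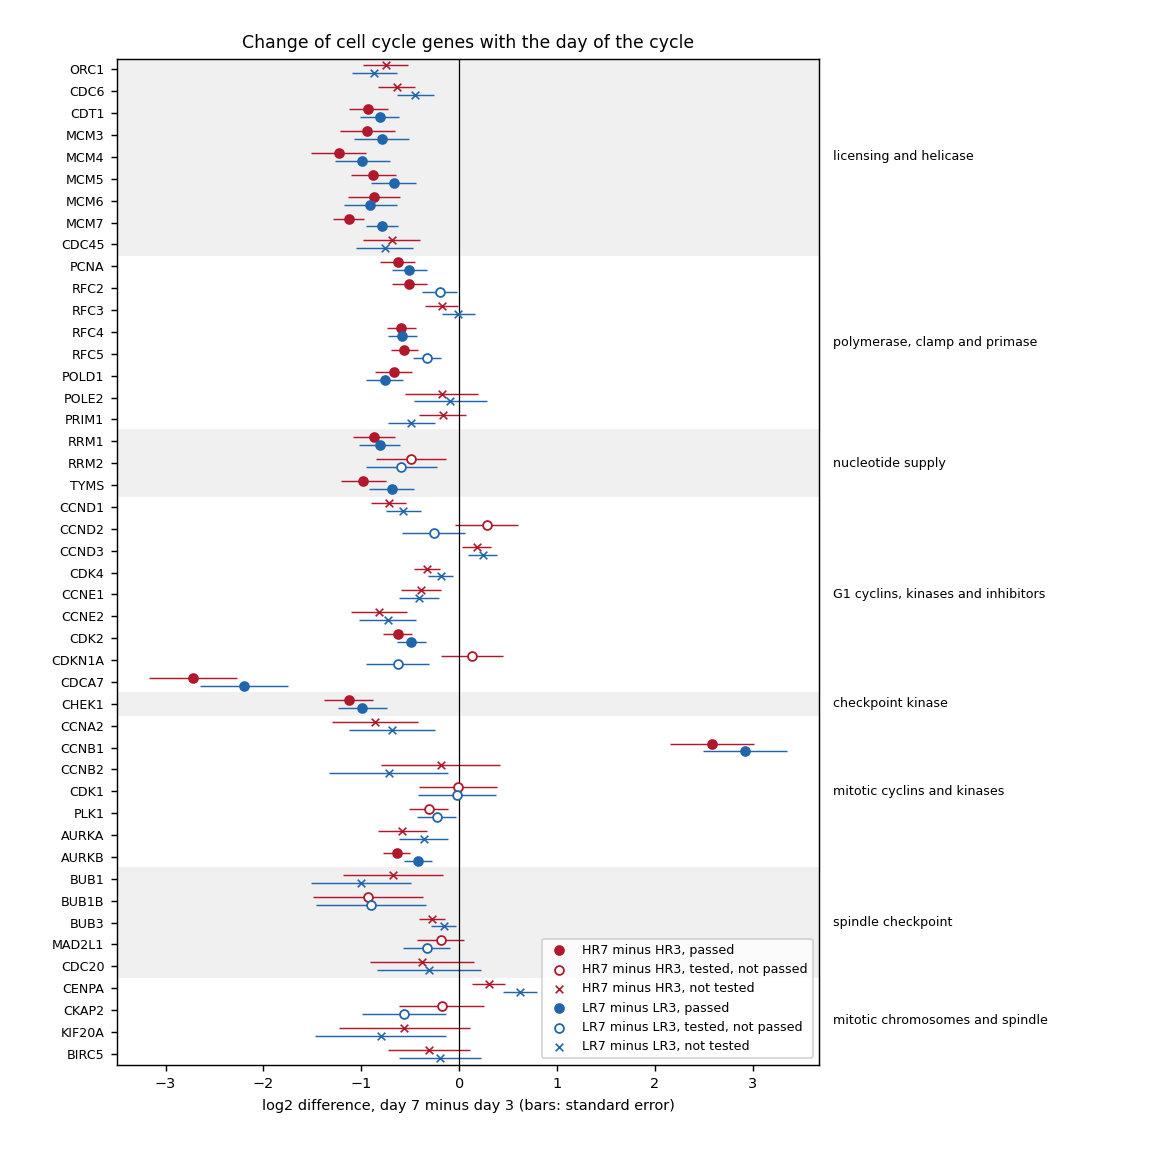
Log2 difference of day 7 minus day 3 for the 46 genes (rows, grouped by role), as HR7 minus HR3 in red and LR7 minus LR3 in blue, with standard errors from limma as bars; filled points passed at an adjusted p under 0.05, open points were tested and did not pass, and crosses were not tested, with bars from the fit of all probe sets. Replication genes lie left of 0 with short bars, CDCA7 lies farthest left at -2.72 in HR and -2.20 in LR, CCNB1 farthest right at 2.58 in HR and 2.92 in LR, and the mitosis genes have the longest bars.

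The largest fall belonged to CDCA7, a target of MYC and E2F that is named for its link to the division cycle. It had 7.26, 8.36 and 6.83 in HR7, 8.65, 7.76 and 6.80 in LR7, 9.70, 10.41 and 10.49 in HR3 and 10.02, 10.22 and 9.57 in LR3. The days were far apart in both groups although the day 7 pools spread over more than 1 log2 unit, and the fall was 6.57-fold in HR (log2 -2.72, SE 0.45, limma adjusted p = 0.0012) and 4.59-fold in LR (-2.20, SE 0.45, adjusted p = 0.00363). CDK2, the kinase partner of cyclins E and A, had 6.90, 6.78 and 6.83 in HR7, 7.05, 6.96 and 6.99 in LR7, 7.29, 7.49 and 7.63 in HR3 and 7.29, 7.81 and 7.38 in LR3. It fell by 0.63 in HR and 0.49 in LR (SE 0.15 each, limma adjusted p = 0.00769 and 0.0226).

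CHEK1, the kinase that halts the cycle when replication stalls, had 7.00, 7.06 and 6.69 in HR7, 7.47, 6.66 and 6.72 in LR7, 7.65, 8.17 and 8.32 in HR3 and 7.71, 8.32 and 7.78 in LR3. Its days did not overlap, and it fell 2.19-fold in HR (log2 -1.13, SE 0.25, limma adjusted p = 0.00539) and 1.98-fold in LR (-0.99, SE 0.25, adjusted p = 0.0102).

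The D cyclins, which sense growth signals in G1, showed no common direction. CCND2 differed by 0.28 in HR and by -0.26 in LR (SE 0.32 each, limma adjusted p = 0.48 and 0.506). The untested CCND1 and CCND3 had -0.72 and 0.18 in HR and -0.57 and 0.24 in LR. In the fit of all probe sets CCND1 was lower in HR7 than in HR3. The untested kinase CDK4 had -0.33 in HR and -0.19 in LR, and the E cyclins CCNE1 and CCNE2 had -0.39 and -0.82 in HR and -0.41 and -0.73 in LR. CDKN1A, the p21 inhibitor of cyclin-dependent kinases, differed by 0.13 in HR and -0.63 in LR (SE 0.32 each, limma adjusted p = 0.751 and 0.119).

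Few mitosis genes passed. Of 7 tested, 1 was lower (AURKB), 1 was higher (CCNB1) and 5 did not pass in either receptivity group, and the other 9 with a probe set were not tested. The sign was negative for 14 of the 16, with medians of -0.31 in HR and -0.34 in LR. CCNB1, the cyclin that activates CDK1 at the entry into mitosis, had 9.24, 9.04 and 9.0 in HR7 and 9.86, 9.73 and 8.90 in LR7, against 6.05, 6.50 and 6.99 in HR3 and 6.38, 7.70 and 5.64 in LR3. Every day 7 pool exceeded every day 3 pool, and the rise was 5.98-fold in HR (log2 2.58, SE 0.43, limma adjusted p = 0.00121) and 7.59-fold in LR (2.92, SE 0.43, adjusted p = 0.000638). The gene has 1 probe set on the array, and no second one could be set beside it. Whether this probe set measures CCNB1 alone was not checked, since probe sequences were not used here.

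CDK1, the kinase partner of CCNB1, had 7.39, 7.41 and 6.97 in HR7, 8.16, 6.73 and 7.09 in LR7, 6.93, 7.02 and 7.86 in HR3 and 7.43, 7.99 and 6.62 in LR3, and differed by -0.01 in HR and -0.02 in LR (SE 0.40 each, limma adjusted p = 0.981 and 0.968). The interval of 95% around its difference was -0.88 to 0.86 in HR and -0.89 to 0.85 in LR, which does not reach the change of CCNB1. The untested cyclins CCNB2 and CCNA2 had -0.19 and -0.86 in HR and -0.72 and -0.69 in LR.

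AURKB, the kinase of the chromosomal passenger complex, had 6.96, 6.99 and 7.06 in HR7, 7.23, 7.20 and 7.15 in LR7, 7.64, 7.53 and 7.76 in HR3 and 7.54, 7.89 and 7.41 in LR3. The days did not overlap, and AURKB fell by 0.64 in HR and 0.42 in LR (SE 0.14 each, limma adjusted p = 0.00495 and 0.0302). PLK1, which acts from centrosome maturation to cytokinesis, differed by -0.31 in HR and -0.23 in LR (SE 0.20 each, limma adjusted p = 0.214 and 0.338). The untested AURKA, a kinase of the spindle poles, had -0.58 in HR and -0.36 in LR.

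The spindle checkpoint holds back anaphase until all chromosomes are attached. Its kinase BUB1B differed by -0.93 in HR and -0.90 in LR with standard errors of 0.56 (limma adjusted p = 0.184 and 0.191), and MAD2L1 by -0.19 in HR and -0.33 in LR (SE 0.24 each, adjusted p = 0.531 and 0.267). BUB1, CDC20 and BUB3 were untested and had -0.68, -0.38 and -0.28 in HR and -1.0, -0.31 and -0.16 in LR. CKAP2, which binds spindle microtubules, had -0.18 in HR and -0.56 in LR (SE 0.43 each, limma adjusted p = 0.75 and 0.284). Of the untested chromosome and spindle genes, the kinesin KIF20A had -0.56 in HR and -0.80 in LR and BIRC5, the survivin of the passenger complex, -0.31 in HR and -0.20 in LR. CENPA, the histone variant of centromeres, was the other mitosis gene with a positive sign, at 0.30 in HR and 0.62 in LR, and in the fit of all probe sets it was higher in LR7 than in LR3.

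**Figure D3:**
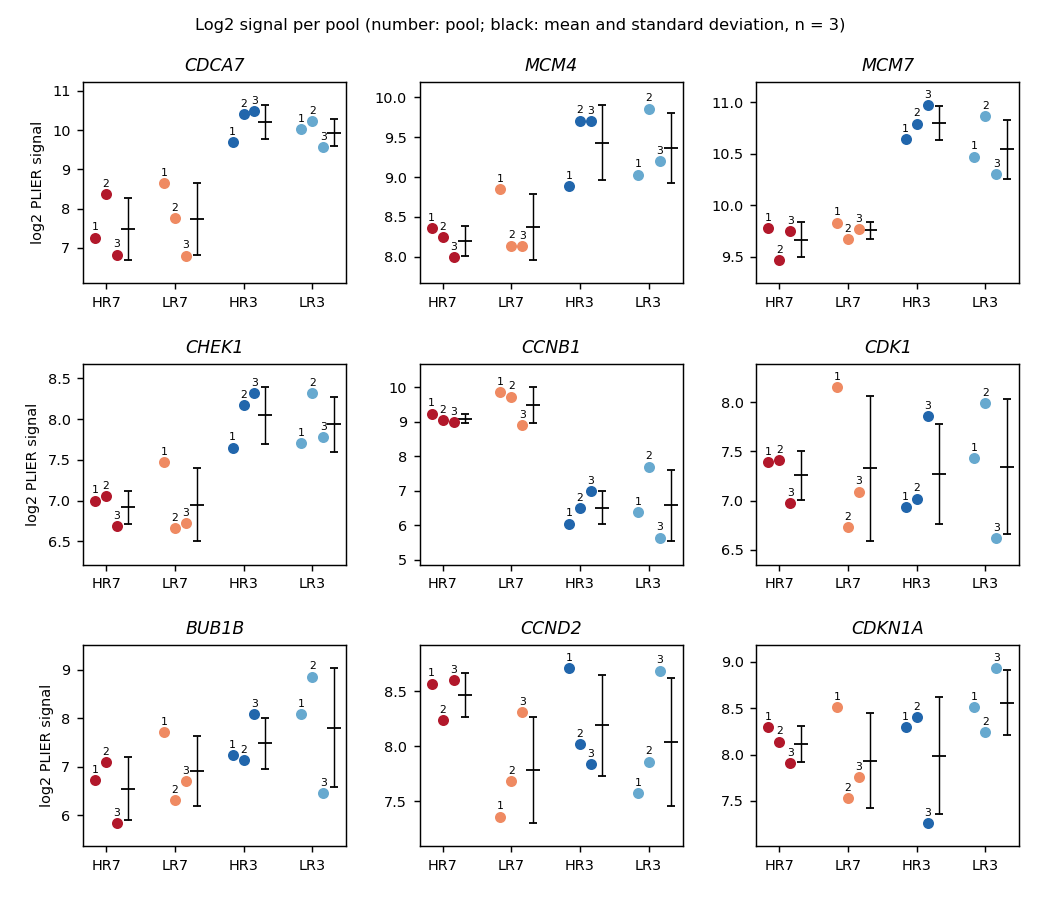
Log2 PLIER signal of 9 genes in each pool (points, numbered by pool) of HR7, LR7, HR3 and LR3, with the mean and standard deviation of 3 pools in black; each panel has its own vertical axis, which does not start at 0. CDCA7, MCM4, MCM7 and CHEK1 are lower and CCNB1 is higher in the day 7 pools without overlap between the days, whereas CDK1, CCND2 and CDKN1A overlap between the days in HR and LR, and BUB1B in LR.

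Counted by the pools alone, 19 of the 26 tested genes had every HR7 pool below every HR3 pool, against 31.2% of all tested probe sets, and 14 of 26 had every LR7 pool below every LR3 pool, against 25.9%. Over all 46 genes these counts were 29 in HR and 19 in LR, against the 18.6% and 15.7% of all probe sets given above.

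Single pools bore on these counts. With LR3 replicate 2 or LR7 replicate 2 left out, 7 of the 15 genes that fell in LR passed, and AURKB, CDK2, MCM3, MCM4, MCM5, MCM6, PCNA and TYMS lost their calls in either case. Without LR3 replicate 3, the mitosis genes BUB1B and CKAP2 passed as lower in LR7. In HR, 12 genes were lower without HR3 replicate 3. The spiked dap transcript, a control of target preparation, had a 5′ minus 3′ log2 signal of -1.76 to -1.28 in LR7 and -2.83 to -2.42 in LR3, and of -2.36 to -1.54 in HR7 and -2.64 to -1.37 in HR3. In LR the days did not overlap in this control. With it as a covariate, 6 genes were lower in LR7 (CDCA7, CDT1, MCM3, MCM4, MCM6 and MCM7) and 0 higher, while 16 were lower and 1 was higher in HR7. CCNB1 then had a difference of 2.22 in LR (limma adjusted p = 0.0575) and CHEK1 one of -1.37 (adjusted p = 0.0514). The median of the 26 genes in LR was -0.82 with this covariate, against -0.61 without it, and that of the 14 tested replication genes was -1.06, against -0.73, so that the differences were larger while fewer passed. A further spiked control, the thr transcript, had -2.51 to -2.02 in LR7 and -3.42 to -3.13 in LR3, and with it as the covariate 14 genes were lower in LR7, with a median of -1.08 over the replication genes. The actin control, which reads the RNA of the sample, had a 5′ minus 3′ log2 signal of -1.16 to -0.30 in HR7 and -0.86 to 0.17 in HR3, and of -1.53 to -0.62 in LR7 and -0.62 to 0.55 in LR3. Its days overlapped in HR and met at 1 value in LR, and its part in these changes was not tested.

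The pools of 1 group differed more in mitosis genes than in replication genes. The pooled standard deviation within groups had a median of 0.59 over the 16 mitosis genes with a probe set, 0.28 over the 20 replication genes and 0.30 over the 10 genes of G1, S entry and checkpoint, against 0.22 over all tested probe sets. Within mitosis genes the median standard deviation was 0.23 in HR7 and 0.56 in LR7, and 0.40 in HR3 and 0.84 in LR3. The differences in spread between groups were not tested.

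The mitosis genes deviated together, pool by pool. LR3 pool 2 was the highest LR3 pool in 15 of the 16 genes and LR3 pool 3 the lowest in 15, with median deviations from the group mean of 0.83 and -0.81. LR7 pool 1 was the highest LR7 pool in 14 genes (median 0.54) and LR7 pool 2 the lowest in 13 (-0.53), and HR3 pool 3 was the highest HR3 pool in 15 (0.39). The HR7 pools were closest to each other, with medians of 0.12, 0.11 and -0.22.

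BUB1, the checkpoint kinase whose deviations were most like those of the other mitosis genes, had 6.11, 5.95 and 5.38 in HR7, 6.87, 5.52 and 5.89 in LR7, 6.37, 6.17 and 6.94 in HR3 and 7.35, 7.97 and 5.95 in LR3. KIF20A had 6.34, 6.15 and 5.28 in HR7, 7.21, 5.42 and 5.95 in LR7, 6.49, 5.93 and 7.04 in HR3 and 7.12, 8.28 and 5.59 in LR3. LR3 pool 3 lay within the range of the LR7 pools for both genes, and HR7 and HR3 overlapped for KIF20A but not for BUB1. CKAP2, which lay above the array median in all groups, showed the same order of LR3 pools with 8.91, 9.48 and 7.52, and that of the LR7 pools was 8.72, 7.52 and 7.98.

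As a description over the 12 pools, the deviations of a mitosis gene correlated with those of the other 15 with a median r of 0.95 for BUB1, 0.94 for KIF20A and CKAP2 and 0.91 for CDK1. The median was 0.75 for CCNB1, whose pools followed the others within a group although its change with the day did not, and -0.66 for CENPA. Over pairs of genes the median r was 0.77 within mitosis, 0.50 within replication and 0.45 between both. All points share the same 12 arrays.

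Replication genes had a pattern of pools that was in part shared with mitosis genes and in part different. LR3 pool 2 was the highest LR3 pool in 18 of 20 genes (median deviation 0.27) and LR7 pool 1 the highest LR7 pool in 14 (0.25), as for mitosis. HR3 pool 1 was the lowest HR3 pool in 19 of the 20 (-0.28), while for mitosis genes the lowest was mostly HR3 pool 2, in 10 of 16. The 5′ minus 3′ signal of HR3 pool 1 was -2.64 for dap, against -1.53 and -1.37 in HR3 pools 2 and 3. For thr it was -3.21 against -1.97 and -1.83, and for actin 0.17 against -0.22 and -0.86. The part of these controls in the deviation was not tested, nor was the share of all probe sets lowest in this pool. LR3 pool 3, which had the lowest mitosis signal, had 2406 for the summed B and plasma cell markers, against 479 in LR3 pool 1 and 704 in pool 2. Of these markers, IGHM and JCHAIN were the highest of LR3 there (10.06 and 10.37), and CD79A and MS4A1 the lowest (2.31 and 3.28). The T and NK cell, neutrophil and macrophage sums were also the highest of LR3 there (2042, 945 and 1692), as were the squamous, ciliated and endothelial sums. The stromal sum was not. The part of these signals in the deviation was not tested. The 8 epithelial markers summed to 26494 in LR3 pool 3, 27229 in pool 2 and 26777 in pool 1.

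**Figure D4:**
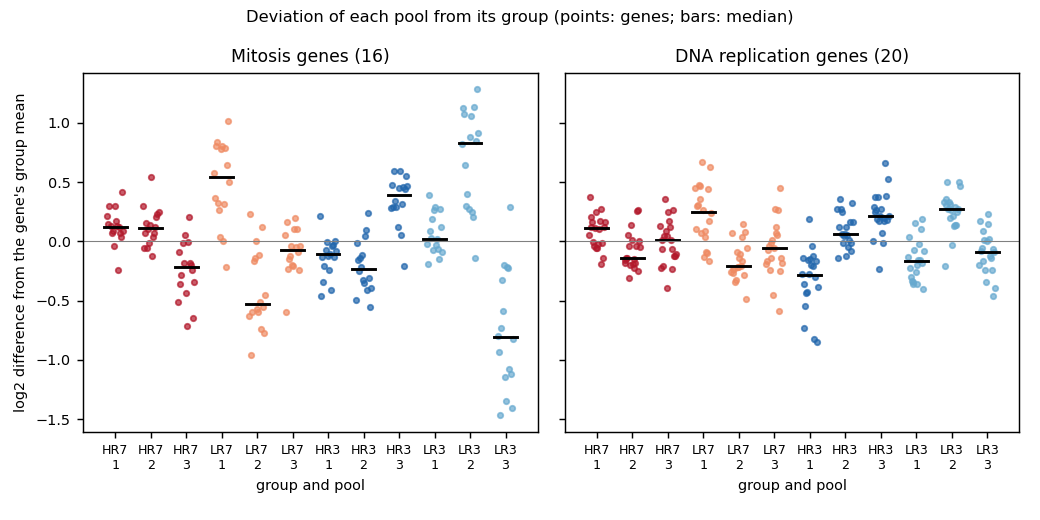
Deviation of each pool from the mean of its group in log2 units for 16 mitosis genes (left) and 20 DNA replication genes (right), with a point per gene and the median as a bar; colours mark HR7, LR7, HR3 and LR3. The medians of the mitosis genes lie between -0.81 in LR3 pool 3 and 0.83 in LR3 pool 2, those of the replication genes between -0.28 in HR3 pool 1 and 0.27 in LR3 pool 2.

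None of the 26 tested cell cycle genes passed between high and low receptive endometria on either day, nor did any of the 46 in the fit of all probe sets. CDK6 had no probe set under its symbol here, and the paper lists it, by its own test, among transcripts more abundant in HR7 than in LR7. By that test the paper also reports cell cycle as a leading function of transcripts more abundant in HR3 than in LR3. Among transcripts that fell with the day in HR but not in LR, it lists DNA damage and CHK checkpoint pathways. It describes changes of proliferation and growth in HR as lacking in LR. Its filter, threshold and gene lists differ from those used here. On day 7, 0.0681% of all tested probe sets passed, and none of the 26 genes did, nor did one reach an unadjusted p under 0.05. The median difference of HR7 minus LR7 was -0.09, and it was 0.06 without LR7 replicate 1 and -0.18 without LR7 replicate 2. CCND2 had the lowest p, with 8.57, 8.24 and 8.60 in HR7 and 7.36, 7.68 and 8.31 in LR7, a difference of 0.69 (SE 0.32, limma adjusted p = 0.997) with an interval of 95% of -0.01 to 1.38. The pools of CCND2 overlapped.

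AURKB and CDK2 were next in p, at -0.19 and -0.16 (SE 0.14 and 0.15, limma adjusted p = 0.997 each), followed by RFC4 at 0.14. For AURKB and CDK2 all HR7 pools lay below all LR7 pools, as given above, and so they did for the untested CCNE2 and AURKA. That is 2 of 26 tested genes, against 8.94% of all tested probe sets whose HR7 and LR7 pools did not overlap.

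On day 3, 0.0% of the probe sets and no gene passed, and none of the 26 had an unadjusted p under 0.05. The median of HR3 minus LR3 was 0.05, and it was -0.09 without HR3 replicate 3 and 0.23 without LR3 replicate 2. With the dap and the thr control as a covariate it was -0.18 and -0.28. CDKN1A had 8.30, 8.40 and 7.26 in HR3 and 8.51, 8.24 and 8.93 in LR3, and differed by -0.57 (SE 0.32, limma adjusted p = 0.722) with an interval of -1.27 to 0.12. HR3 pool 3 alone was low, and the other HR3 pools lay within the range of LR3.

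RFC5, MCM7 and RFC2 differed by 0.25, 0.26 and 0.27 on day 3 (limma adjusted p = 0.725 to 0.77), with overlapping pools in all. For MCM7 the interval was -0.10 to 0.61. No tested gene had HR3 and LR3 pools apart, against 10.7% of all tested probe sets, and among the untested ones CDC45 did, with 5.39, 5.25 and 4.97 in HR3 and 6.08, 6.12 and 5.58 in LR3.

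The change with the day was not shown to differ between HR and LR for any gene, with 0.0% of all probe sets passing in limma and none of the 26 genes at an unadjusted p under 0.05. The lowest p belonged to CDKN1A, whose change in HR minus that in LR was 0.76 (SE 0.45, limma adjusted p = 1.0) with an interval of -0.22 to 1.74. The same difference was -0.35 for MCM7 (interval -0.85 to 0.16), 0.54 for CCND2 (interval -0.44 to 1.52) and -0.31 for RFC2, and none passed. Its median over the 26 genes was -0.12, against 0.21 with the dap and 0.4 with the thr control as a covariate.

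**Figure D5:**
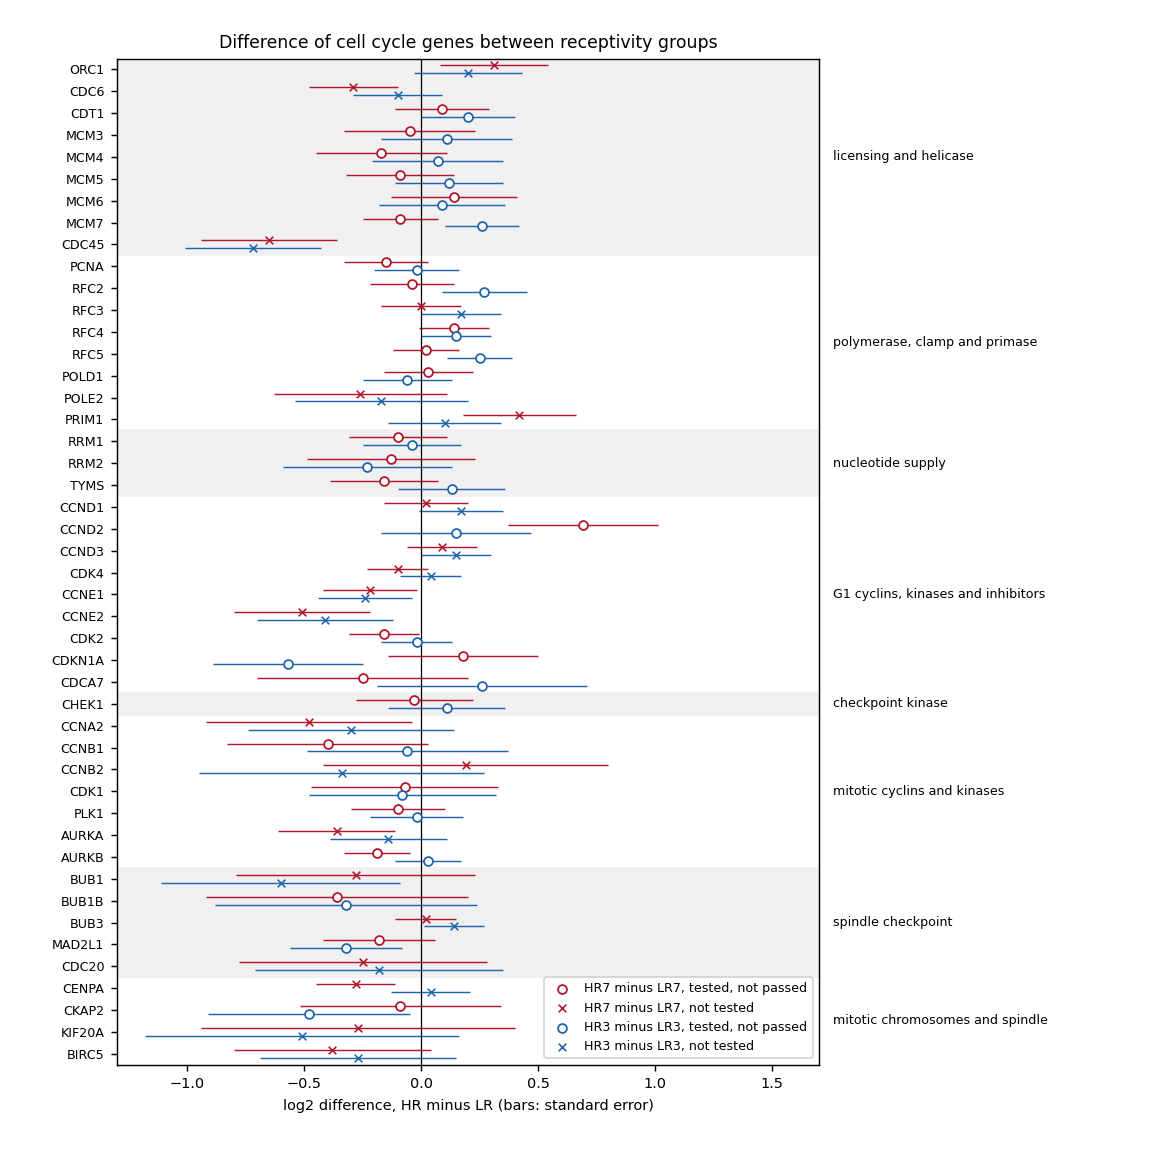
Log2 difference of HR minus LR for the 46 genes (rows, grouped by role) on day 7 in red and on day 3 in blue, with standard errors from limma as bars; open points were tested and did not pass, and crosses were not tested, with bars from the fit of all probe sets. All points lie between -0.72 (CDC45 on day 3) and 0.69 (CCND2 on day 7).

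A wider list of 195 other genes of the same processes, of which 126 had a probe set and 56 were tested, also held more genes that fell than rose. In HR 21 were lower and 3 higher on day 7, and in LR 21 were lower and 4 higher, and none passed between HR and LR on either day. Over all tested probe sets, 20.8% were lower and 20.7% higher in HR7, and 22.0% and 22.7% in LR7. In the fit of all probe sets, 15 of the 126 were lower and 3 higher in HR7 (5.44% and 5.74% of all probe sets). In LR7, 12 were lower and 4 higher (5.21% and 6.24%). Of 17 other replication genes, 9 were lower in HR7 and 8 in LR7, with 1 higher in each. In the fit of all probe sets, 7 of 35 were lower in HR7 and 6 in LR7, with 1 higher in each. UHRF1, which reads hemimethylated DNA behind the fork, fell by 1.65 in HR and 1.48 in LR (limma adjusted p = 0.00599 and 0.0101), and GMNN, the inhibitor of CDT1, by 1.35 in HR and 1.11 in LR (adjusted p = 0.00175 and 0.00491). UNG, a uracil glycosylase, fell by 1.01 in HR and by 0.61 in LR, and POLA2, of the primase complex, by 0.79 in HR and 0.84 in LR.

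Among 11 other regulators of G1 and of the checkpoints, 5 were lower and 1 was higher on day 7 in each group. In the fit of all probe sets, 5 of 32 were lower in HR7 and 3 in LR7, with 1 higher in each. CDK7, the kinase that activates other cyclin-dependent kinases, rose by 1.34 in HR and 1.35 in LR (SE 0.12 each, limma adjusted p = 2.88e-05 and 4.36e-05). WEE1, which inhibits CDK1, fell by 0.90 in HR and 0.98 in LR, and GADD45A, a stress-induced gene, by 0.75 in HR and 1.01 in LR.

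Of 28 other mitosis genes, 7 were lower and 1 higher in HR7, and 8 were lower and 2 higher in LR7. The lower shares were near the 20.8% in HR7 and 22.0% in LR7 of all tested probe sets. In the fit of all probe sets, 3 of 59 were lower in each, against 5.44% of all probe sets in HR7 and 5.21% in LR7. There, 1 was higher in HR7 and 2 were higher in LR7. SPC24, a part of the kinetochore complex that binds microtubules, rose by 2.97 in HR and 2.66 in LR (SE 0.36 each, limma adjusted p = 0.000176 and 0.00038). STMN1, which destabilizes microtubules, fell by 1.52 in HR and 1.21 in LR (limma adjusted p = 0.000438 and 0.00175), and NCAPG2, a condensin subunit, by 0.85 in HR and 0.84 in LR (adjusted p = 0.0239 and 0.0245).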

How the data were processed

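RNA of 60 endometrial brush samples was hybridized in 12 pools of 5 to Affymetrix Bovine Genome Arrays. The authors scanned them in GCOS 1.1.1 with global scaling and summarised each probe set by PLIER in Expression Console, and the deposited values are log2 signals, used as they are (0 to 14.07). Depth does not apply to arrays, and precision is limited by how many arrays there are. Present calls of the authors were not used here.

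Groups came from the sample records. Of 24128 entries, 112 controls were left out. The platform annotation names 13292 probe sets by 1 symbol and 86 by several, which were not used for naming, and 10638 by none. The members, roles and other lists were chosen with earlier results of these data known.

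A linear model with a mean for each group was fitted in limma 3.58.1 (R 4.3.3) to the 12 arrays together, with moderated standard errors, for the comparisons HR7 with HR3, LR7 with LR3, HR7 with LR7 and HR3 with LR3 and for the interaction, and p was adjusted by Benjamini-Hochberg within each. The paper calls its design longitudinal and describes brushing on both days of the pre-transfer cycle. Whether the pools of both days hold the same heifers is not given in the sources used here. The main fit treated all pools as independent, so p measures the spread between pools. Values of every pool are given for up to 8 members per comparison with the largest differences that passed or, where fewer than 4 passed, for the 4 with the lowest p, and BUB1, KIF20A, CKAP2, CDK1 and CDC45 were added after their values were seen. Tables were made with Python 3.11.15 and pandas 2.3.3. The fit was tested on simulated data.

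Pools carry the numbers 1 to 3 within each group. Deviations of same-numbered pools correlated in every pair only between LR7 and LR3 (0.198 to 0.463) and between HR7 and LR7 (0.136 to 0.445), and a further fit took it as a block. The remaining alternatives concerned the filter, the scaling, the variance model, the probe sets, the adjustment and each pool left out, and the spiked controls were added as covariates after seeing the data.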

Additional observations from a re-analysis of the deposited data

How the results depend on the processing

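The counts of cell cycle genes that were higher or lower between HR7 and HR3 stayed within 1.5 times of the 17 lower and 1 higher under every alternative, 12 to 17 lower when 1 pool was left out. Between LR7 and LR3, 15 were lower, and the count was 8 with no filter (2 higher) and 8 with no stand-in for the present calls, 9 when p was adjusted over the 5 comparisons together, and 6 lower and 0 higher with the dap control as a covariate, where the median difference of the tested genes was -0.82 against -0.61. With 1 pool left out it was 7 to 15, lowest without LR3 replicate 2 or LR7 replicate 2. With the pool number as a replicate block, 17 were lower in HR7 and 13 in LR7, where MCM3 and PCNA lost their calls, and no other call changed. None was called between HR and LR or for the interaction in any alternative. The named genes of these comparisons had a limma adjusted p of 0.722 or more in the main fit, so their side of the threshold could hardly change. They are included in the totals given next. Over the named genes and alternatives, 751 values kept their sign and their side of the threshold, 27 kept the sign and lost the call, and 2 changed sign, both for CCND2 in the interaction, with -0.05 under the dap and -0.16 under the thr covariate against 0.54. The cause of these changes was not tested. Genes that exceeded the array median in all pools of no group could be described but were not tested in the main fit. With 3 pools per group the intervals of the mitosis genes are wide.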
